A study of Mus musculus with 8 samples.

Results

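p53, encoded by Trp53, and 32 genes that act on it or are listed as its transcriptional targets were compared between 2 mouse cell lines. Whether p53 regulates each listed target in these lines was not tested. The 33 genes were picked by name from the deposited raw count table of 43346 genes, 1 row for each name, and all 33 had enough counts to be tested. LLC1, the Lewis lung carcinoma line, arose from a tumour in the lung of a C57BL mouse. The epithelial line MLE12 came from a lung tumour of a mouse transgenic for the SV40 large T antigen, with the surfactant protein C promoter driving the transgene. Large T is a viral protein that binds p53 and the retinoblastoma protein. Each line gave 4 libraries of poly-A RNA from untreated cells at about 80% confluence, both lines were obtained from ATCC, and each line is 1 established culture lineage. The sequence of Trp53 in either line was not analysed here.

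p53 is a transcription factor that cells keep at a low protein level. The ubiquitin ligase Mdm2 marks it for degradation, and its relative Mdm4 blocks its activation domain. DNA damage, oncogene activity and other stresses release p53 from these inhibitors, after which it binds pairs of a 10-base element near its targets and raises genes of cell cycle arrest, cell death, DNA repair and metabolism, and Mdm2 itself. Because p53 is controlled mainly as a protein, the level of its RNA and its activity are separate quantities, and only RNA was measured here.

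Promoters of the members are shown first, since p53 acts on its targets by binding DNA. RefSeq promoters of build GRCm38.p6, from 250 bases before to 50 after a gene's start, were at hand for 25 of the 33 members, in 35 windows. Ddb2, Perp, Pmaip1, Rrm2b, Tnfrsf10b, Trp53inp1, Xpc and Zmat3 had no entry. The windows were searched for the 10-base p53 half-site consensus (the p53 decamer), pairs of which make up a response element. The decamer is its own reverse complement, so that 1 search covers both strands. It was found in 8 of the 25 members (32.0%), and in 9.55% of all 27025 genes with a promoter in the table (8.36% of all 32851 windows). The members were picked as p53 genes and had more windows per gene, so these shares are no test of enrichment. No member's window held more than 1 exact match. The 8 matches are printed with 20 bases on either side where the window allows, 5′ to 3′ along the gene's strand, with the decamer in capitals.
Trp53, chr11:69580264-69580313, plus strand: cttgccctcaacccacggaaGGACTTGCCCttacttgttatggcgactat
Mdm2, chr10:117710915-117710964, minus strand: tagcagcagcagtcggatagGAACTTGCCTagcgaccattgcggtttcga
Ccng1, chr11:40755442-40755491, minus strand: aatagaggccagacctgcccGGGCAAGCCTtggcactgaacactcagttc
Bax, chr7:45467070-45467119, minus strand: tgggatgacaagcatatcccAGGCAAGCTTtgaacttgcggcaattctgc
Aen, chr7:78895917-78895966, plus strand: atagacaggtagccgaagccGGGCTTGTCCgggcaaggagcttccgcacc
Ei24, chr9:36797315-36797364, minus strand: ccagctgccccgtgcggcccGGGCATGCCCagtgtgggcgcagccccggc
Polk, chr13:96519389-96519437, minus strand: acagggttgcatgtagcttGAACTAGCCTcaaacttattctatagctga
Sesn1, chr10:41887246-41887295, plus strand: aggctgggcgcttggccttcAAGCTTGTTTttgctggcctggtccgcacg
Counted from the start of the printed window's RefSeq transcript as +1, the first base of the decamer lay at -75 in Trp53, -186 in Mdm2, -185 in Ccng1, -201 in Bax, -10 in Ei24, -231 in Polk and -173 in Sesn1, and at 11 in Aen from the upstream of its starts. The windows of Polk and Sesn1 belong to starts inside the gene, and those at their outermost starts held no match. A match is a description of the letters, not evidence of binding. For comparison, the full promoters of Eda2r and Btg2, members that differed strongly toward LLC1 and toward MLE12 and were chosen after their values were seen, are printed next. Neither holds the decamer in this window, which says nothing on sites elsewhere in the gene.
Eda2r, chrX:97377160-97377459, minus strand: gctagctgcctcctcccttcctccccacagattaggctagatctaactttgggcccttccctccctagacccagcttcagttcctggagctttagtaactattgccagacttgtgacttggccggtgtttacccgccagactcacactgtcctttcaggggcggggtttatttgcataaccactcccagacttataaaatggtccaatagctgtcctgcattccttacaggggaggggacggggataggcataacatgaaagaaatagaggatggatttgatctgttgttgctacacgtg
Btg2, chr1:134079106-134079405, minus strand: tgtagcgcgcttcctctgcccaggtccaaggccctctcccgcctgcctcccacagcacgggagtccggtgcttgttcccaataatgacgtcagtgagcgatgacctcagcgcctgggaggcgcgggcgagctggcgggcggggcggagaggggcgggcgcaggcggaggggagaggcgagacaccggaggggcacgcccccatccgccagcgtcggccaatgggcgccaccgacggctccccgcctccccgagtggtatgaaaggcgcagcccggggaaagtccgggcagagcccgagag

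Levels are in CPM, the depth-scaled count with TMM-scaled library sizes. Differences are log2 fold changes of LLC1 over MLE12 ± SE from edgeR's quasi-likelihood test, where a positive sign means more RNA in LLC1. This SE can be too small for genes with few counts in 1 line. A gene is called where its Benjamini-Hochberg adjusted p over all 18546 genes tested is under 0.05. Library totals were 46.8 to 55.3 M counts in LLC1 and 48.6 to 76.7 M in MLE12, and a total of 3 counts, which a count of 0 allows, was 0.0640 CPM in the shallowest LLC1 library and 0.0617 CPM in the shallowest MLE12 library. Such floors cover counting error only, since PCR reads without molecular identifiers are not independent molecules. Means are given ± SD over the 4 libraries. Separate cultures are not stated in the labels for the libraries of a line, and the p-values therefore cover only the spread among these libraries, which may be technical. All 5 lung epithelial markers were higher in MLE12, summing to 348 to 369 CPM there and 1.62 to 1.78 CPM in LLC1, and all 4 mesenchymal markers were higher in LLC1 (5317 to 5724 against 916 to 967 CPM). Nearly all of the mesenchymal sum in MLE12 was Vim, at 943 ± 21.2 CPM. Leukocyte markers summed to 7.98 to 8.78 CPM in LLC1 and 2.00 to 2.51 CPM in MLE12, nearly all of it Cd68, while Ptprc and Cd3e had no count in LLC1. Endothelial markers summed to 0.419 to 0.711 CPM in LLC1 and 0.320 to 0.453 CPM in MLE12, and the 1 of 3 that could be tested was not called. Their part in the results on p53 genes was not tested.

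Most members differed between the lines, and more of them were higher in the carcinoma line. Of the 33, 22 were higher in LLC1 (66.7%, against 40.7% of all genes tested), 9 higher in MLE12 (27.3%, against 40.9%) and 2, Aen and Ei24, were not called. In bulk RNA, fewer cells that express a gene and less RNA per cell cannot be told apart. Together 93.9% were called, where 81.6% of all genes were, and the members' median level, 30.5 CPM, exceeded the 13.9 CPM of all genes tested. The 4 libraries of one line lay wholly apart from those of the other for 31 members (93.9%, against 76.3% of all genes). For 8 of the 31 called members (25.8%) the fold was under 1.5, as it was for 30.8% of all called genes. In edgeR's glmTreat, which asks for more than a 2-fold difference, 12 members passed (36.4%, against 33.7% of all genes). Of these, 9 were higher in LLC1 (27.3%, against 16.7%) and 3 higher in MLE12 (9.09%, against 16.9%). The median log2 fold change of the members was 0.55, beside 0.02 for all genes tested. These shares describe the list, whose members were chosen with earlier results known, and carry no test of their own.

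Trp53 itself was slightly higher in LLC1, and so were both of its inhibitors. Trp53 (ENSMUSG00000059552, chr11:69580359-69591873, mm10) stood at 180.1, 179, 196 and 195 CPM in LLC1 replicates 1 to 4 and 155, 152, 158 and 146 CPM in MLE12 replicates 1 to 4. All LLC1 libraries were above all MLE12 libraries, but the lines differed by only 1.23-fold (0.30 ± 0.04, adjusted p = 6.0e-06). Mdm2, the main ubiquitin ligase of p53 and also its target (ENSMUSG00000020184, chr10:117688888-117710758), stood at 110.3, 107, 105 and 104 CPM in LLC1 replicates 1 to 4 and 75.2, 74.97, 74.6 and 82.0 CPM in MLE12 replicates 1 to 4. Replicate 4 was the highest of the MLE12 libraries, and still below every LLC1 library (0.47 ± 0.04, 1.39-fold, adjusted p = 7.7e-09). Mdm4, the relative of Mdm2 that masks the p53 activation domain (ENSMUSG00000054387, chr1:132959484-133030561), was at 166, 177, 152 and 173 CPM in LLC1 replicates 1 to 4 and 99.3, 97.0, 102 and 94.8 CPM in MLE12 replicates 1 to 4. Its difference was the largest of the 3, at 0.76 ± 0.05 (1.70-fold, adjusted p = 2.3e-11). None of the 3 passed the 2-fold test. The processed pseudogene Mdm4-ps, which could share reads with Mdm4, had 642 counts in LLC1 and 1161 in MLE12, beside 33030 and 27744 for Mdm4. Its Trp53 counterpart Trp53-ps had 2 and 4.

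**Figure D1:**
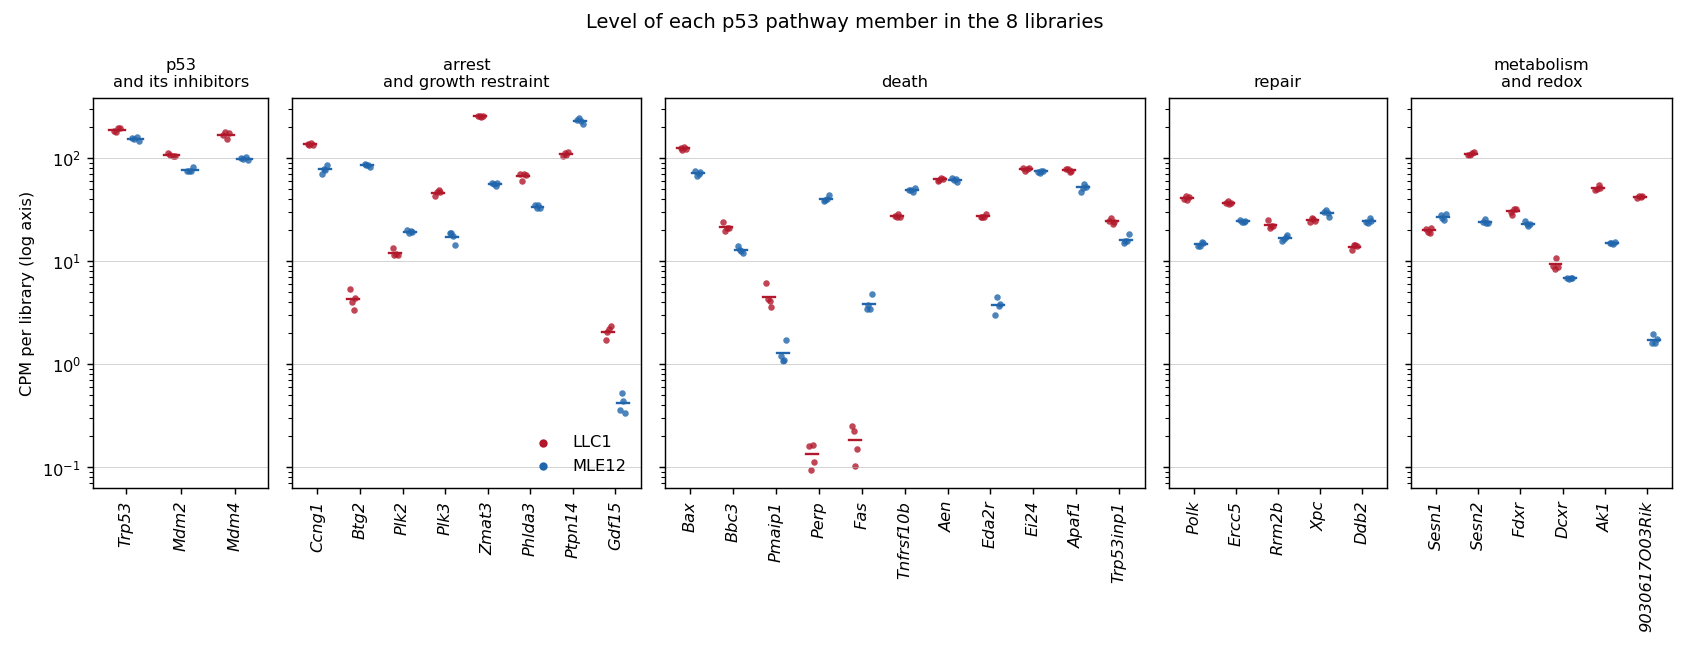
CPM on a log axis for each of the 33 members in every library, by function, with LLC1 in red and MLE12 in blue (points: libraries, bars: means of 4). The lines overlap for Aen and Ei24, and the widest gaps are those of Perp, 9030617O03Rik, Fas and Btg2.

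The 8 targets that restrain growth or the cell cycle divided into 5 higher in LLC1 and 3 higher in MLE12, with a median of 0.90. These were 62.5% and 37.5%, against 40.7% and 40.9% of all genes tested. Zmat3, an RNA-binding zinc finger protein that acts on splicing and RNA stability, had the highest CPM of any member in LLC1. It stood at 252, 256, 249.0 and 251.2 CPM in LLC1 replicates 1 to 4 and 56.5, 55.2, 53.2 and 57.3 CPM in MLE12 replicates 1 to 4. The libraries of each line lay close together, and the log2 fold change was 2.18 ± 0.04 (4.54-fold, adjusted p = 1.3e-19). Plk3, a polo-like kinase of the stress response, was at 42.9, 46.2, 48.6 and 46.3 CPM in LLC1 replicates 1 to 4 and 18.6, 18.6, 17.5 and 14.1 CPM in MLE12 replicates 1 to 4. MLE12 replicate 4 was the lowest library, and the lines differed by 1.41 ± 0.07 on the log2 scale. Gdf15, a secreted cytokine induced by many stresses, was low in both lines, at 1.73, 2.06, 2.17 and 2.32 CPM in LLC1 replicates 1 to 4 and 0.362, 0.530, 0.444 and 0.340 CPM in MLE12 replicates 1 to 4 (2.29 ± 0.21, adjusted p = 6.9e-09). Its counts over 4 libraries were 412 in LLC1 and 120 in MLE12.

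Btg2, an antiproliferative cofactor of the mRNA deadenylation machinery, went the other way. Its levels were 5.41, 3.98, 3.39 and 4.34 CPM in LLC1 replicates 1 to 4 and 86.8, 85.4, 86.0 and 81.5 CPM in MLE12 replicates 1 to 4. LLC1 held 5.04% of the MLE12 level, or -4.32 ± 0.09 on the log2 scale (adjusted p = 1.2e-17). Ptpn14, a tyrosine phosphatase that restrains the YAP coactivator, was also higher in MLE12, at 109 ± 4.16 CPM (LLC1) against 228 ± 11.5 CPM (MLE12) (-1.07 ± 0.05, 2.09-fold). That difference was called against no change but missed the 2-fold test (adjusted p = 0.0722), and it passed that test under 4 of the alternatives, among them without MLE12 replicate 4 (adjusted p = 0.00888). Plk2, another polo-like kinase, was the third member of the group higher in MLE12 (-0.69 ± 0.07). Phlda3, which competes with Akt for membrane lipids, and Ccng1, an atypical cyclin, were higher in LLC1 by 0.99 ± 0.06 and 0.81 ± 0.05, both short of the 2-fold test. Phlda3 was at 67.0 ± 5.41 CPM (LLC1) against 33.7 ± 1.51 CPM (MLE12), and Ccng1 at 135 ± 3.74 CPM (LLC1) against 77.3 ± 6.62 CPM (MLE12).

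Among the 11 genes of cell death, 6 had more RNA in LLC1 and 3 in MLE12, and 2 were not called, with a median of 0.55. The shares were 54.5% and 27.3%, against 40.7% and 40.9% of all genes tested. Together 81.8% were called, close to the 81.6% of all genes. Bax, the pore-forming effector, was at 123 ± 4.23 CPM (LLC1) against 71.2 ± 3.64 CPM (MLE12) (0.79 ± 0.05), and the BH3-only activator Bbc3 (Puma) at 21.2 ± 1.85 CPM (LLC1) against 12.7 ± 0.877 CPM (MLE12) (0.74 ± 0.07). Pmaip1 (Noxa), another BH3-only gene, stood at 6.08, 4.28, 4.09 and 3.56 CPM in LLC1 replicates 1 to 4 and 1.20, 1.07, 1.09 and 1.72 CPM in MLE12 replicates 1 to 4. LLC1 replicate 1 was the highest and replicate 4 the lowest of its line, and MLE12 replicate 4 was the highest of the other, without overlap (1.84 ± 0.19, adjusted p = 3.3e-08). Apaf1, the scaffold of the apoptosome, and Trp53inp1, a stress protein that assists p53 and autophagy, were higher in LLC1 by 0.55 ± 0.05 and 0.59 ± 0.07.

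The receptors in the death group differed in both directions. Fas, the receptor of Fas ligand (ENSMUSG00000024778, chr19:34290659-34327770), stood at 0.254, 0.225, 0.103 and 0.152 CPM in LLC1 replicates 1 to 4 and 3.43, 3.71, 3.43 and 4.82 CPM in MLE12 replicates 1 to 4. It was low in both lines, with 36 counts over the 4 LLC1 libraries and 1056 over those of MLE12 (-4.38 ± 0.24, adjusted p = 1.7e-12). Tnfrsf10b, the mouse TRAIL death receptor, was higher in MLE12 as well, at 27.4 ± 1.05 CPM (LLC1) against 49.0 ± 1.48 CPM (MLE12) (-0.84 ± 0.05). Eda2r, an X-linked receptor of ectodysplasin A2 (ENSMUSG00000034457, chrX:97333840-97377216), was the exception. It stood at 26.6, 26.8, 26.9 and 28.3 CPM in LLC1 replicates 1 to 4 and 3.01, 4.52, 3.68 and 3.80 CPM in MLE12 replicates 1 to 4, and the fold of 7.24 in favour of LLC1 was the largest among death genes on that side (2.86 ± 0.09, adjusted p = 7.3e-16).

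Perp, a tetraspan membrane protein of desmosomes and a p53 effector of apoptosis (ENSMUSG00000019851, chr10:18845071-18857073), had the largest difference of all members. Its levels were 0.162, 0.0935, 0.165 and 0.114 CPM in LLC1 replicates 1 to 4 and 38.2, 38.6, 40.0 and 43.5 CPM in MLE12 replicates 1 to 4. The 4 LLC1 libraries held 26 counts in all and the MLE12 libraries 11193, or -8.23 ± 0.12 on the log2 scale (adjusted p = 3.0e-21). The LLC1 level was 0.334% of that in MLE12. Of the 9867 genes with at least 10 CPM in MLE12, the lowest such share was 0.142% and the lowest 1% of genes lay under 0.405%. The epithelial markers, among them the adhesion genes Cdh1 and Epcam, were higher in the same line, and their part in the difference of Perp was not tested.

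The 2 members that were not called both belong to the death group. Aen, an exonuclease that digests nuclear DNA in apoptosis, was at 59.7, 61.4, 63.1 and 62.9 CPM in LLC1 replicates 1 to 4 and 63.0, 60.7, 62.7 and 58.6 CPM in MLE12 replicates 1 to 4. The libraries of the lines interleaved, and the log2 difference was 0.01 with a 95% interval of -0.08 to 0.10 (adjusted p = 0.794). Ei24, a membrane protein of the endoplasmic reticulum linked to autophagy, stood at 80.1, 74.98, 77.2 and 79.3 CPM in LLC1 replicates 1 to 4 and 73.5, 71.5, 74.6 and 74.99 CPM in MLE12 replicates 1 to 4, and LLC1 replicate 2 fell just below MLE12 replicate 4. Its difference was 0.08, with an interval of -0.01 to 0.17 (adjusted p = 0.0821). Both intervals lie well within 1.5-fold. The call of Ei24 depended on the scaling and on 1 library: without LLC1 replicate 2 the adjusted p was 0.0487.

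Repair genes went both ways, with 3 of 5 higher in LLC1, 2 higher in MLE12 and a median of 0.43. That is 60% and 40%, against 40.7% and 40.9% of all genes tested. Polk, the translesion DNA polymerase kappa (ENSMUSG00000021668, chr13:96480689-96542485), was the only repair gene past the 2-fold test. It stood at 39.7, 42.3, 39.1 and 41.5 CPM in LLC1 replicates 1 to 4 and 13.9, 14.1, 15.1 and 15.0 CPM in MLE12 replicates 1 to 4 (1.48 ± 0.06, 2.80-fold, adjusted p = 4.8e-15). Ercc5, the XPG endonuclease of nucleotide excision repair, and Rrm2b, the p53-inducible subunit of ribonucleotide reductase, were also higher in LLC1 (0.59 ± 0.05 and 0.43 ± 0.07). On the other side, Xpc, a damage-recognition factor of excision repair, was at 25.2 ± 1.08 CPM (LLC1) against 29.2 ± 1.93 CPM (MLE12) (-0.22 ± 0.06), and Ddb2, a subunit of the ultraviolet-damage binding complex, at 13.8 ± 0.693 CPM (LLC1) against 24.5 ± 1.32 CPM (MLE12) (-0.83 ± 0.06). The gene model of Ddb2 overlaps that of Acp2 on the opposite strand, which had 9570 counts in LLC1 and 11798 in MLE12 beside 2737 and 6899 for Ddb2. Without a stated strand setting the value of Ddb2 is uncertain. In all, 11 of the 33 members overlap another gene of the table on either strand, and apart from Acp2 each neighbour had at most 8.19% of the member's counts in either line.

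Metabolic and redox targets had the highest median of the groups, 1.11, with 5 of 6 members higher in LLC1 and 3 of them past the 2-fold test. These shares were 83.3% and 50%, against 40.7% and 16.7% of all genes tested. The median is the midpoint of Dcxr (0.44) and Ak1 (1.77), and no member lay between them. 9030617O03Rik, a mitochondrial protein gene now named Dglucy for D-glutamate cyclase (ENSMUSG00000021185, chr12:100779057-100896981), stood at 40.5, 42.4, 42.1 and 42.5 CPM in LLC1 replicates 1 to 4 and 1.60, 1.98, 1.61 and 1.74 CPM in MLE12 replicates 1 to 4. It differed by 24.2-fold (4.59 ± 0.08, adjusted p = 1.4e-20), the most of any member toward LLC1.

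The sestrins, stress proteins that damp the growth kinase mTORC1, went in opposite directions. Sesn2 stood at 106, 106, 112 and 115 CPM in LLC1 replicates 1 to 4 and 23.6, 25.7, 23.2 and 23.2 CPM in MLE12 replicates 1 to 4, and was higher in LLC1 by 2.19 ± 0.05 (4.58-fold, adjusted p = 1.9e-18). Sesn1 was at 19.8 ± 0.974 CPM (LLC1) against 26.9 ± 1.59 CPM (MLE12) and higher in MLE12 (-0.44 ± 0.06). Ak1, adenylate kinase 1, which interconverts adenine nucleotides, stood at 48.9, 49.9, 54.98 and 50.6 CPM in LLC1 replicates 1 to 4 and 14.8, 15.0, 14.7 and 15.2 CPM in MLE12 replicates 1 to 4 (1.77 ± 0.05, 3.42-fold). Fdxr, the ferredoxin reductase of mitochondrial electron transfer, and Dcxr, a carbonyl reductase, differed little, by 0.41 ± 0.06 and 0.44 ± 0.09, both toward LLC1.

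**Figure D2:**
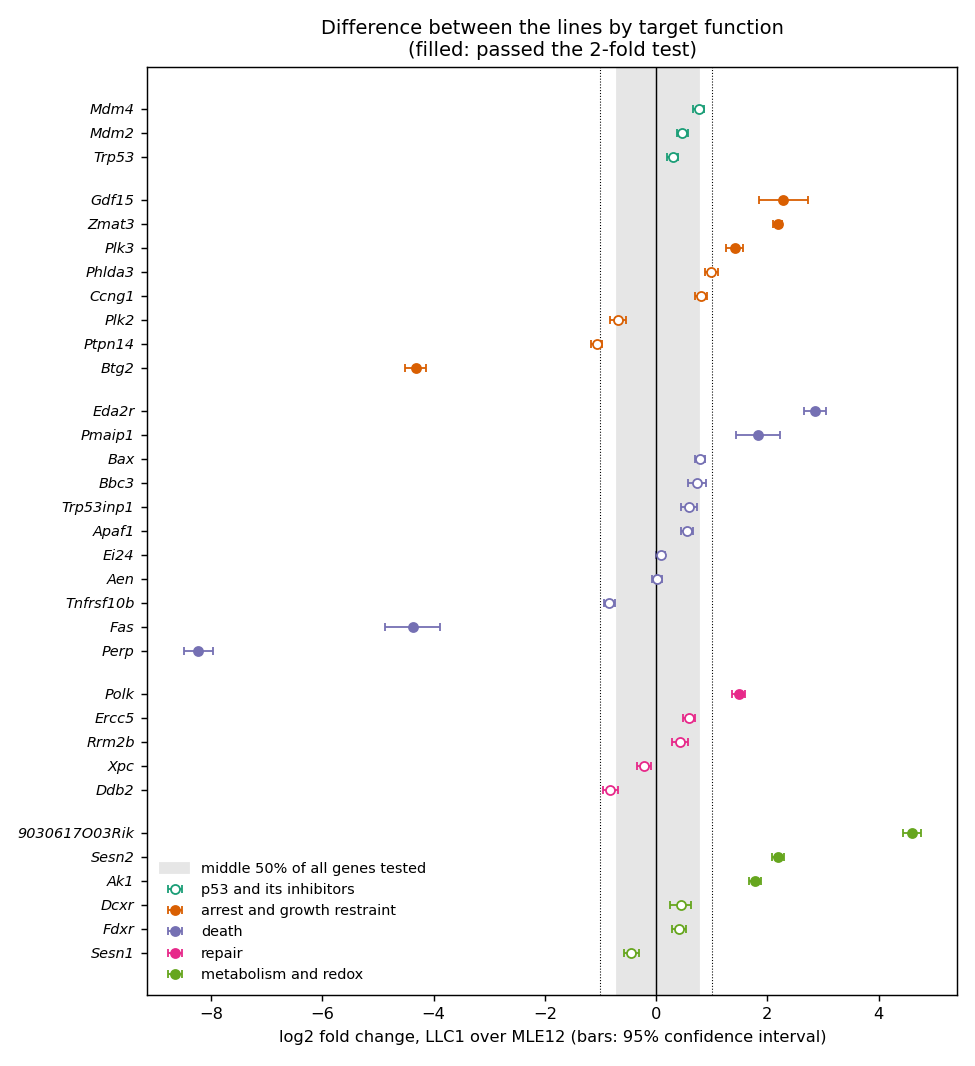
Log2 fold change of each member, LLC1 over MLE12, with its 95% interval, grouped by function and filled where the 2-fold test was passed; dotted lines mark 2-fold and the grey band the middle 50% of all genes tested (-0.71 to 0.77). Each function group except p53 and its inhibitors has members on both sides of 0. The interval of Perp, which had few LLC1 counts, is too narrow, and that of Fas may be.

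Set side by side, the function groups had medians of 0.47 (p53 and its inhibitors), 0.90 (arrest and growth restraint), 0.55 (death), 0.43 (repair) and 1.11 (metabolism and redox). Death genes ran from -8.23 to 2.86, arrest genes from -4.32 to 2.29, metabolic genes from -0.44 to 4.59, repair genes from -0.83 to 1.48 and p53 with its inhibitors from 0.30 to 0.76. Differences among the groups were not tested, since each holds 3 to 11 genes that were chosen by name.

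To compare genes with one another, CPM was divided by the length in kilobases that the deposited table gives, which yields RPKM. On this scale Bax was the most abundant member in both lines, at 142 ± 4.87 RPKM in LLC1 and 82.0 ± 4.19 in MLE12 (mean ± SD, n = 4). The table's length for Bax, 869 bases, is shorter than the 1576 bases of all its exons in GENCODE M21, so its level per length depends on the annotation. Trp53 came next, at 46.3 ± 2.29 and 37.7 ± 1.29 RPKM, above 93.1% of tested genes in LLC1 and 90.9% in MLE12. Mdm2 stood at 21.0 ± 0.559 and 15.1 ± 0.699 RPKM and Mdm4 at 11.3 ± 0.748 and 6.64 ± 0.197 RPKM, so that Trp53 RNA exceeded that of either inhibitor in both lines.

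Behind Bax and Trp53 the order of levels changed with the line. In LLC1 the next members were Phlda3 (43.0 ± 3.47 RPKM), Ccng1 (38.5 ± 1.06) and Sesn2 (31.5 ± 1.31), and the mean ± SD of Trp53 and Phlda3, and of Phlda3 and Ccng1, overlapped. In MLE12 the third was Btg2 (31.0 ± 0.864 RPKM), followed by Ccng1 (22.0 ± 1.89), Phlda3 (21.6 ± 0.967), Ei24 (21.3 ± 0.448) and Perp (21.1 ± 1.26), these last 4 overlapping in mean ± SD. The length used for Ei24, 3459 bases, is shorter than its 4868 bases of GENCODE M21 exons, so its place depends on the annotation. The lowest members in LLC1 were Perp (0.0703 ± 0.0187 RPKM) and Fas (0.102 ± 0.0380), and in MLE12 Gdf15 (0.226 ± 0.0467) and 9030617O03Rik (0.391 ± 0.0391). Perp thus ranked above 82.3% of tested genes in MLE12 and above 7.20% in LLC1.

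**Figure D3:**
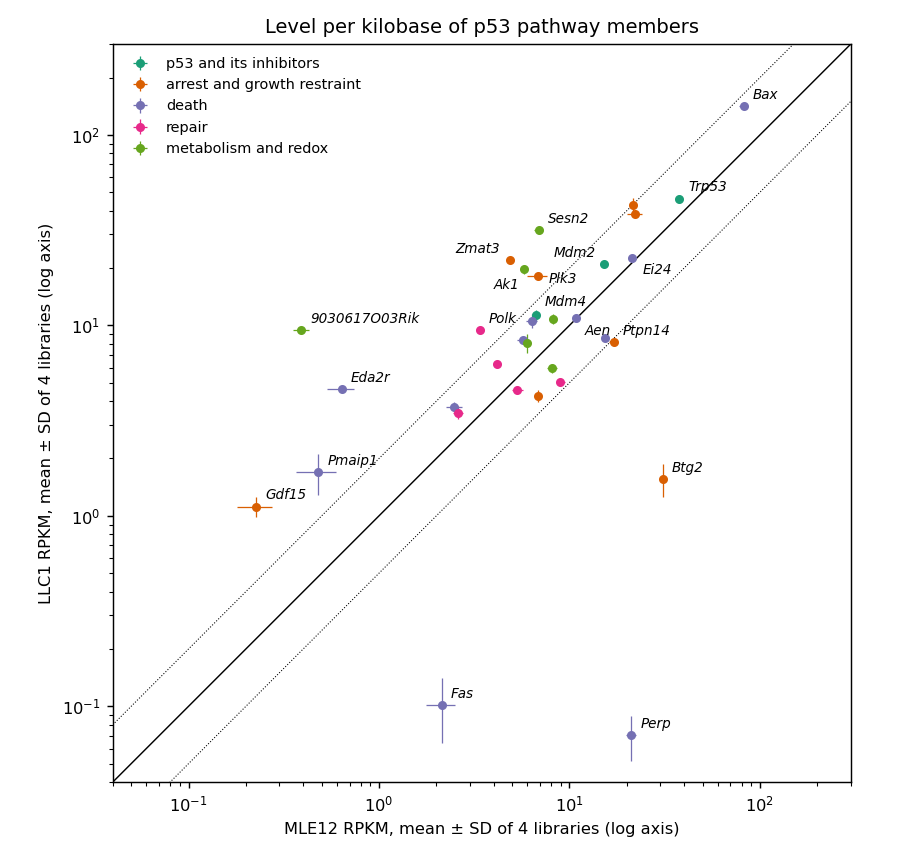
RPKM of each member in LLC1 (vertical) against MLE12 (horizontal), both log axes, mean ± SD of 4 libraries, coloured by function; the solid line marks equal levels and the dotted lines 2-fold. Bax and Trp53 are at the upper right, and Perp, Fas and Btg2 lie far below the line.

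Other genes of the pathway came from 3 lists of 51 genes, of which 49 could be tested. Their counts are read against the shares of all genes tested, 40.7% called higher in LLC1 and 40.9% in MLE12, and past the 2-fold test 16.7% and 16.9%. Upstream regulators, the kinases, ligases and ribosomal proteins that act on p53 or Mdm2, numbered 16, of which 6 had more RNA in LLC1 and 9 in MLE12 (37.5% and 56.2%), while 1 was not called, with a median of -0.17. The 2 that passed the 2-fold test were both higher in MLE12. Cdkn2a, the locus of p16 and of Arf, the Mdm2 inhibitor, stood at 1.27, 0.973, 1.20 and 1.20 CPM in LLC1 replicates 1 to 4 and 326, 285, 310.2 and 307 CPM in MLE12 replicates 1 to 4 (-8.05 ± 0.08, adjusted p = 1.0e-23). Counts are per gene, so RNA of p16 and of Arf could not be told apart. Hipk2, a kinase that phosphorylates p53, stood at 35.2, 37.8, 36.7 and 37.1 CPM in LLC1 replicates 1 to 4 and 199.7, 224, 206 and 168 CPM in MLE12 replicates 1 to 4, lowest in MLE12 replicate 4 (-2.44 ± 0.07). p53 relatives and cofactors numbered 11, of which 10 were tested: 2 had more RNA in LLC1 and 6 in MLE12 (20% and 60%), while 2 were not called, with a median of -0.31. Ppp1r13b and Trp53bp2, which encode ASPP1 and ASPP2, the proteins that steer p53 toward death genes, were both higher in MLE12. Ppp1r13b was at 6.21 ± 0.366 CPM (LLC1) against 47.8 ± 2.54 CPM (MLE12) (-2.94 ± 0.06), and Trp53bp2 at 35.9 ± 1.74 CPM (LLC1) against 124 ± 5.22 CPM (MLE12) (-1.79 ± 0.05). The other cofactor gene past the 2-fold test, named after its values were seen, was the p53 relative Trp63, with 1 count over the LLC1 libraries and 273 over those of MLE12.

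Further p53 targets numbered 24, of which 23 were tested: 9 had more RNA in LLC1 and 12 in MLE12 (39.1% and 52.2%), while 2 were not called, with a median of -0.21 beside 0.55 for the members. Past the 2-fold test there were 9 toward LLC1 (39.1%, against 16.7% of all genes) and 5 toward MLE12 (21.7%, against 16.9%). Cdkn1a, the p21 inhibitor of cyclin-dependent kinases and the best-known arrest target, stood at 166, 157, 170.4 and 163 CPM in LLC1 replicates 1 to 4 and 20.4, 20.9, 21.0 and 21.6 CPM in MLE12 replicates 1 to 4 (2.97 ± 0.05, 7.83-fold, adjusted p = 5.2e-21). Trp53cor1, the noncoding RNA transcribed next to Cdkn1a, was at 10.5 ± 0.995 CPM (LLC1) against 0.115 ± 0.04999 CPM (MLE12) (6.47 ± 0.19), with 33 counts in all in MLE12. Steap3, a metalloreductase of iron uptake, was at 29.6 ± 1.69 CPM (LLC1) against 1.35 ± 0.183 CPM (MLE12) (4.45 ± 0.09). On the other side, Trp53i11 was at 0.368 ± 0.129 CPM (LLC1) against 61.9 ± 2.21 CPM (MLE12) (-7.42 ± 0.11), the matrix glycoprotein gene Thbs1 at 3.57 ± 0.543 CPM (LLC1) against 146 ± 12.3 CPM (MLE12) (-5.36 ± 0.09) and the autophagy regulator Dram1 at 0.790 ± 0.141 CPM (LLC1) against 15.1 ± 1.04 CPM (MLE12) (-4.26 ± 0.12). Differences past 2-fold among p53 targets lay in both directions, with Cdkn1a, Zmat3 and Sesn2 higher in LLC1 and Btg2, Perp and Fas higher in MLE12.

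**Figure D4:**
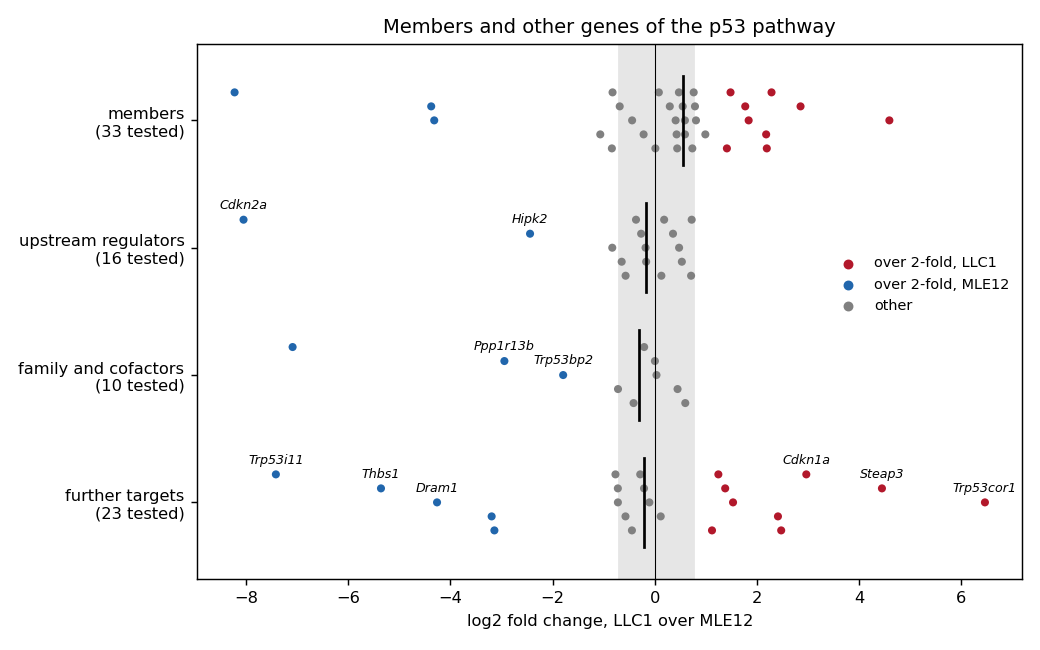
Log2 fold change of the 33 members and of the tested genes of 3 further p53 lists (points: genes, black bars: medians, grey band: middle 50% of all genes tested), coloured where the 2-fold test was passed. The members' median is 0.55 and those of the other lists are -0.17, -0.31 and -0.21.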

How the data were processed

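Poly-A RNA of LLC1 and MLE12 cells was sequenced as paired reads, 4 libraries per line. The authors deposited raw counts per gene, and the tools named per the submitters' processing notes are CASAVA, TopHat2, featureCounts and edgeR, with build mm10. Versions, strand setting, annotation and the handling of mates and multiple alignments: not given in the sources used here. The deposited gene length, another column of the table, was within 5% of the union of GENCODE M21 exons for 24 of 33 members, so it includes untranslated exons.

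Groups came from the cell line label. Counts were filtered with filterByExpr, scaled by TMM (factors 0.924 to 1.04) and fitted without covariates in edgeR 4.0.16 (R 4.3.3) with glmQLFit (robust) and glmQLFTest, and with glmTreat for a fold of 2. P-values were adjusted by Benjamini-Hochberg over all genes. SE is the log2 fold change over the square root of F. The fit was run on simulated counts with 200 changed genes. That is far fewer than the 15132 genes called here, so the run checks the code alone. Libraries of a line differed beyond counting noise (chi-square over its degrees of freedom 6.35 to 53.1), so none was a duplicate. The members, function groups and lists were chosen with earlier results of these data known. Values in every library were given for Trp53, Mdm2, Mdm4, members past the 2-fold test and members not called. From each other list, up to 3 genes per direction past that test with at least 10 CPM in the higher line, and always Cdkn1a and Cdkn2a, were named. Tigar of these lists was found by its gene ID. Alternatives were DESeq2 1.42.0, limma-voom (limma 3.58.1), other scalings and filters, rounded counts divided by 2, the 20 most abundant genes removed, a replicate block and each library left out.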

Additional observations from a re-analysis of the deposited data

Results flagged for a closer look

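In 3 of the 66 sets of 4 libraries (33 members in 2 lines), 1 library stood far from the other 3, and chance flags about 1 in 20 such sets. Mdm2 in MLE12 replicate 4 was at 82.0 CPM, where the others were at 74.6 to 75.2. Phlda3 in LLC1 replicate 2 was at 59.0 CPM, where the others were at 68.6 to 70.3. Sesn2 in MLE12 replicate 2 was at 25.7 CPM, where the others were at 23.2 to 23.6. All 3 genes remained called, in the same direction, when that library was left out.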

How the results depend on the processing

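All 31 called members kept their direction and their call, and all 12 members past the 2-fold test stayed past it, under the 18 alternatives (10 settings and 8 libraries left out). Counts of members higher in LLC1 were 22 to 23 and in MLE12 9 without any 1 library, and 9 and 3 to 4 for the 2-fold test. Aen, never called, changed sign with DESeq2 (-0.0166), library totals alone (-0.0858), no filter (-0.0295), the 20 most abundant genes removed (-0.00146) and without MLE12 replicate 2 (-0.00215) or 4 (-0.0149), and Ei24 with library totals alone (-0.0187). Without any 1 library Aen ranged from -0.0149 to 0.0469. Ei24 was called with upper-quartile factors, at least 1 CPM in 4 libraries, counts divided by 2 and without LLC1 replicate 2. Ptpn14 passed the 2-fold test with library totals alone, with no filter, with the 20 most abundant genes removed and without MLE12 replicate 4; the cause was not tested. The median of all members was 0.52 with DESeq2, 0.51 with no filter and 0.50 to 0.57 without any 1 library. With upper-quartile factors the medians were 0.61 (all members), 0.53 (p53 and its inhibitors), 0.96 (arrest), 0.61 (death) and 0.49 (repair). With library totals alone they were 0.45, 0.37, 0.80, 0.45, 0.33 and, for metabolism, 1.01. With at least 1 CPM in 4 libraries they were 0.60 (all members), 0.95 (arrest) and 0.48 (repair). The median of all genes tested moved from 0.02 to 0.07 with upper-quartile factors and to -0.08 with library totals alone. With at least 1 CPM in 4 libraries it was 0.009, so there it did not rise with the members' median.

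Same-numbered libraries of the lines did not deviate together throughout (correlations of -0.00676, 0.108, 0.0801 and -0.0646 for numbers 1 to 4), so the numbers were not taken as pairs. With the replicate block 22 members were higher in LLC1 and 9 in MLE12, 9 and 3 past the 2-fold test, and 14795 genes were called in all, against 15132 without it.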
